A study of Homo sapiens with 6 samples.

Results

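The shape and the quantity of mitochondria are set by a small group of regulators, and 10 of their genes were followed here in MDA-MB-231, a long-established line from a human triple-negative breast cancer (TNBC). The members were chosen by gene symbol, with earlier results of these data known. They were MFN1, MFN2 and OPA1 for fusion, DNM1L, FIS1 and MFF for fission, and PPARGC1B, PPRC1, TFAM and NRF1 for biogenesis. Each of the 10 symbols had exactly 1 row among the 17631 genes in the data. There were 3 mRNA libraries from cells given vehicle and 3 from cells given 30 µM PDBAG1 for 24 h. PDBAG1 is a peptide derived from the metabolic enzyme GPD1 and joined to a cell-penetrating sequence. The composition of the vehicle is not given in the sources used here. All results come from 1 cell line, and the labels do not say whether the 3 libraries of a group came from separate cultures, so the p values measure the spread between these libraries only. The values are TPM, a share of the sequenced transcripts corrected for transcript length.

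Mitochondria continually fuse and divide. MFN1 and MFN2, the mitofusins, are GTPases that tether and fuse outer membranes, and OPA1 is the dynamin-like GTPase that fuses inner membranes. Division is carried out by DRP1, the cytosolic GTPase encoded by DNM1L, which is recruited to the outer membrane by receptors such as MFF, with FIS1 as a further outer-membrane adaptor. Biogenesis is driven by coactivators of the PGC-1 family, of which PPARGC1B encodes PGC-1β and PPRC1 encodes PRC. These coactivators work with transcription factors such as nuclear respiratory factor 1, encoded by NRF1 and not to be confused with the antioxidant factor NRF2. TFAM packages mitochondrial DNA and is required for its transcription.

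The libraries expressed all 5 listed markers of the line, which differed between the groups in both directions. VIM was at 4174 to 4346 TPM with vehicle and 5758 to 5942 TPM with PDBAG1, and CD44 at 313 to 331 and 463 to 499 TPM. CAV1 (560 to 590 and 445 to 488 TPM) and AXL (375 to 394 and 309 to 341 TPM) were lower with PDBAG1. ZEB1 overlapped, at 41.1 to 50.4 TPM. Of 4 markers listed as low in this line, PGR was at 0.06 TPM or below and CDH1 at 0.84 TPM or below. However, ESR1 (1.96 to 3.38 TPM) and EPCAM (3.92 to 5.78 TPM) were above 1 TPM in all 6 libraries. Of 5 markers of other cell types, 4 had a row, and their summed level was 11.1 to 11.4 TPM in the vehicle group and 16.2 to 17.7 TPM in the PDBAG1 group. PECAM1, an endothelial adhesion gene, made up most of that difference (3.78 to 4.08 against 7.87 to 9.15 TPM), PTPRC stayed at 1.41 TPM or below, and their part in the results was not tested. The number of genes at 1 TPM or more ranged from 12392 to 12611. Depth is unknown, because TPM keeps none. A lower TPM is a lower share of the mRNA, and fewer cells with the transcript cannot be told apart from less of it per cell.

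Promoter sequences from RefSeq (GRCh38.p14) were available for 9 of the 10 members, NRF1 being the exception. They are shown for 4 members, the 150 bases before the RefSeq start site in each, because binding sites of nuclear respiratory factor 1 and of the ETS factor GABP are the classical elements of nuclear genes for mitochondria, and because TFAM and PPRC1 fell with PDBAG1 whereas the fusion genes OPA1 and MFN1 did not pass the test. Capitals mark matches on either strand to the nuclear respiratory factor 1 motif (GCGC, any base, then TGCGC) or to the ETS motif CCGGAAG. TFAM lies at chr10:58385260-58385409, PPRC1 at chr10:102132890-102133039, OPA1 at chr3:193593058-193593207 and MFN1 at chr3:179347559-179347708, all on the plus strand.
TFAM: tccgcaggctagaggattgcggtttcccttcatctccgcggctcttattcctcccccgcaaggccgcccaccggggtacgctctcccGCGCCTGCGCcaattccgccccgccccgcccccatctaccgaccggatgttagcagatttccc
PPRC1: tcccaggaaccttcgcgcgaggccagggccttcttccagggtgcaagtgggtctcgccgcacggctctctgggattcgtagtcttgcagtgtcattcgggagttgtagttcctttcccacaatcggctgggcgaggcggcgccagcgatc
OPA1: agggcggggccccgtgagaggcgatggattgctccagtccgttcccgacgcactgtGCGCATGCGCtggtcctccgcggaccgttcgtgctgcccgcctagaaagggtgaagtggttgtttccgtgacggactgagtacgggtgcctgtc
MFN1: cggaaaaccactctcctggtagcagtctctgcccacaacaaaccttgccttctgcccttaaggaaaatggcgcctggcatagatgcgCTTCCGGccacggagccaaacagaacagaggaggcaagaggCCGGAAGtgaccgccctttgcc

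The nuclear respiratory factor 1 motif began 63 bases before the start site in TFAM and 94 bases before it in OPA1, where the middle base was A. Of all 35114 promoter windows of 300 bases, 5.78% held this motif with any middle base and 1.24% held it with A. The ETS motif was found in MFN1 (63 and 22 bases before the start) and in FIS1 (9 bases before it), against 10.3% of all windows. PPRC1, MFN2 and DNM1L held neither, nor the E-box CACGTG (7.26% of windows) or the HIF core motifs ACGTG (21.4%) and GCGTG (36.5%), of which the first overlaps the E-box. The HIF core GCGTG was present in the windows of OPA1, MFF and TFAM, and ACGTG in a second window of MFF. The windows of PPARGC1B and FIS1 lie 41.6 kb and 7.24 kb from the outer boundary of the gene in GENCODE v44. The RefSeq start sites of TFAM and OPA1 lie 65 and 64 bases inside that boundary. The nuclear respiratory factor 1 motif of TFAM therefore falls within the GENCODE gene, and that of OPA1 begins before it. Which start site these cells used was not tested.

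Among the 10 members, with the values as deposited, 3 of the 4 biogenesis genes fell with PDBAG1 and no fusion or fission gene passed the test. TFAM, PPRC1 and NRF1 were lower at a Benjamini-Hochberg adjusted p under 0.05 in limma, a linear model fitted to log2(TPM + 1) over the 12582 genes that reached 1 TPM in no fewer than 3 libraries. All 10 members passed that filter. The 3 called members of 10 (30.0%) stand against 37.6% of all genes tested, and the 3 called lower against 15.9% of all genes that were called lower (21.7% were called higher). These shares depended on the scaling between libraries. Under median-of-ratios scaling 5 of 10 members and 41.3% of all genes were called, with the fusion gene MFN2 and the fission gene FIS1 added. Under quantile normalisation 4 members, with MFN2 added, and 40.9% of all genes were called. As deposited, 57.8% of the calls over all genes were higher with PDBAG1, against 47.2% under median-of-ratios scaling and 46.7% under quantile normalisation. The same 3 were the members whose groups did not overlap, all lower with PDBAG1, where 20.2% of all genes tested did not overlap in that direction and 47.4% did not overlap in either. No member reached a 1.5-fold change, which 3.34% of all genes tested did together with the adjusted p (2.86% higher and 0.477% lower).

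**Figure D1:**
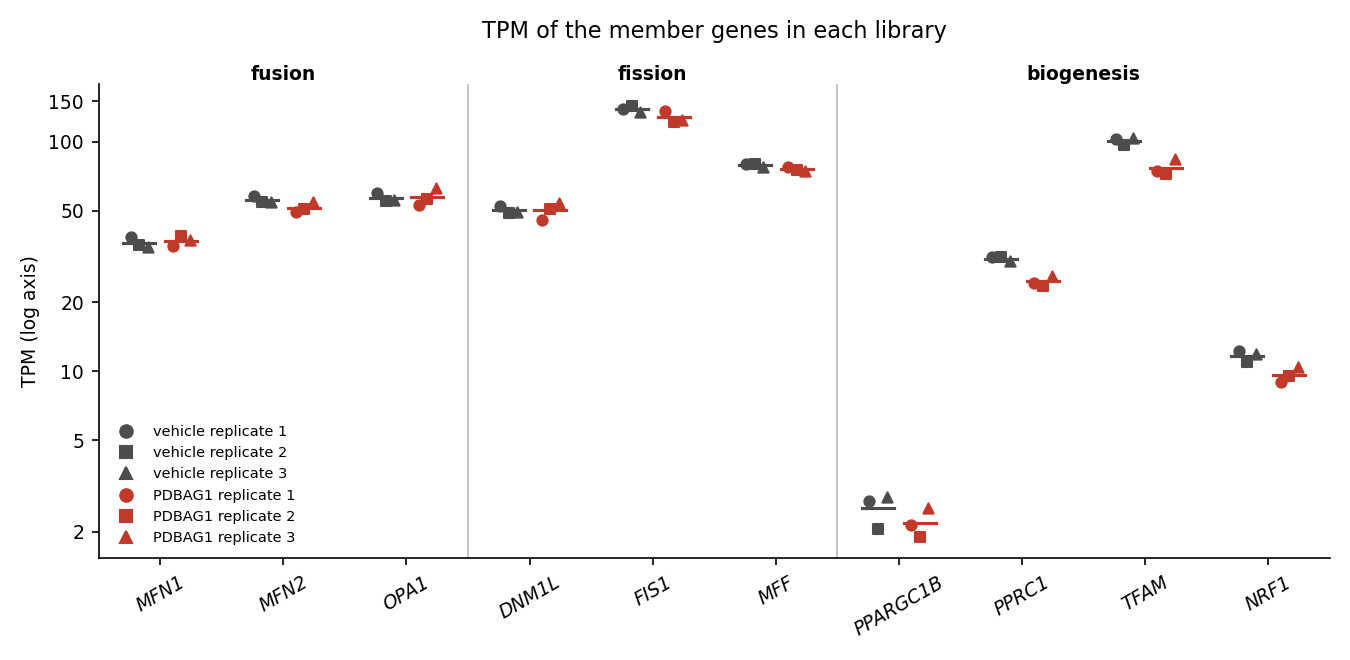
TPM of the 10 members in each of the 6 libraries on a log axis, with vehicle in grey, PDBAG1 in red, replicates 1 to 3 as circle, square and triangle, and a line at each group mean. The PDBAG1 points lie below all vehicle points for PPRC1, TFAM and NRF1 and overlap with them for the other members.

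TFAM (chromosome 10, 58385345 to 58399220, GRCh38, GENCODE v44) was at 103, 96.8 and 103 TPM in vehicle replicates 1 to 3 and at 75.0, 72.8 and 83.9 TPM in PDBAG1 replicates 1 to 3. The highest PDBAG1 library stayed below the lowest vehicle library. The mean went from 101 ± 3.79 to 77.2 ± 5.91 TPM (SD, n = 3 each), which gave a log2 fold change of -0.39 with SE 0.06 (adjusted p by limma = 0.000125) and a 95% interval of -0.51 to -0.27. In fold terms TFAM was at 0.764 of the vehicle level. Only 2.47% of all genes tested had a lower log2 fold change. TFAM passed the test under all 15 other settings, with a log2 fold change between -0.45 and -0.35.

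PPRC1 (chromosome 10, 102132994 to 102150333), which encodes the growth-responsive coactivator PRC, was at 31.4, 31.4 and 30.2 TPM in the vehicle libraries and at 24.3, 23.6 and 26.1 TPM in the PDBAG1 libraries. Here too the groups were separate. The mean was lower with PDBAG1, at 24.7 ± 1.29 TPM against 31.0 ± 0.678 TPM with vehicle (SD, n = 3 each), changing by -0.32 on the log2 scale (SE 0.06, adjusted p by limma = 0.000911), with a 95% interval of -0.45 to -0.19. PPRC1 passed the test under all 15 other settings as well, between -0.36 and -0.29.

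NRF1 (chromosome 7, 129611720 to 129757082) was less abundant, at 12.31, 10.99 and 11.84 TPM in the vehicle group and 9.01, 9.55 and 10.4 TPM with PDBAG1. The gap between the lowest vehicle and the highest PDBAG1 library was narrow. The mean was 11.7 ± 0.669 against 9.65 ± 0.701 TPM (SD, n = 3 each), which gave a log2 fold change of -0.26 with SE 0.08 (adjusted p by limma = 0.0218) and a 95% interval of -0.43 to -0.08. The direction was kept under all 15 other settings and the call under 9 of them, with adjusted p values from 0.00134 to 0.0742. It was lost without vehicle replicate 1 (log2 fold change -0.22), vehicle replicate 3 (-0.25), PDBAG1 replicate 1 (-0.21) or PDBAG1 replicate 2 (-0.25), without the expression filter (adjusted p = 0.0521), and with the replicate number as a block (adjusted p = 0.0536).

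PPARGC1B (chromosome 5, 149730298 to 149855022) was close to the expression limit and did not pass the test. It was at 2.71, 2.05 and 2.82 TPM in the vehicle group and at 2.13, 1.90 and 2.55 TPM with PDBAG1, so that the groups overlapped. The log2 fold change was -0.14 with SE 0.12 (adjusted p by limma = 0.391), and its 95% interval of -0.40 to 0.12 contains both no change and a fall as large as that of TFAM.

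The third member of the coactivator family, PPARGC1A, encodes PGC-1α, the coactivator best known for inducing mitochondria in muscle and brown fat. It was at 3.50 ± 0.365 TPM in the vehicle group and 4.34 ± 0.640 TPM with PDBAG1 (SD, n = 3 each). The log2 fold change of 0.24 did not pass the test (limma adjusted p = 0.0987). The PDBAG1 libraries lay above the vehicle libraries by a narrow gap (lowest 3.93 against highest 3.86 TPM). Of all genes tested, 27.2% did not overlap in that direction. PPRC1 was the most abundant of the 3 coactivator genes in all 6 libraries. Its share of their summed TPM was 82.7%, 84.9% and 83.5% with vehicle and 80.01%, 79.96% and 77.39% with PDBAG1. The share of PPARGC1A was 9.45 ± 0.759% and 13.9 ± 1.07% (SD, n = 3 each), and that of PPARGC1B was 6.83 ± 1.16% and 7.005 ± 0.563%. The family summed to 37.0 ± 0.902 TPM in the vehicle libraries and to 31.2 ± 2.23 TPM in the others (SD, n = 3 each).

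**Figure D2:**
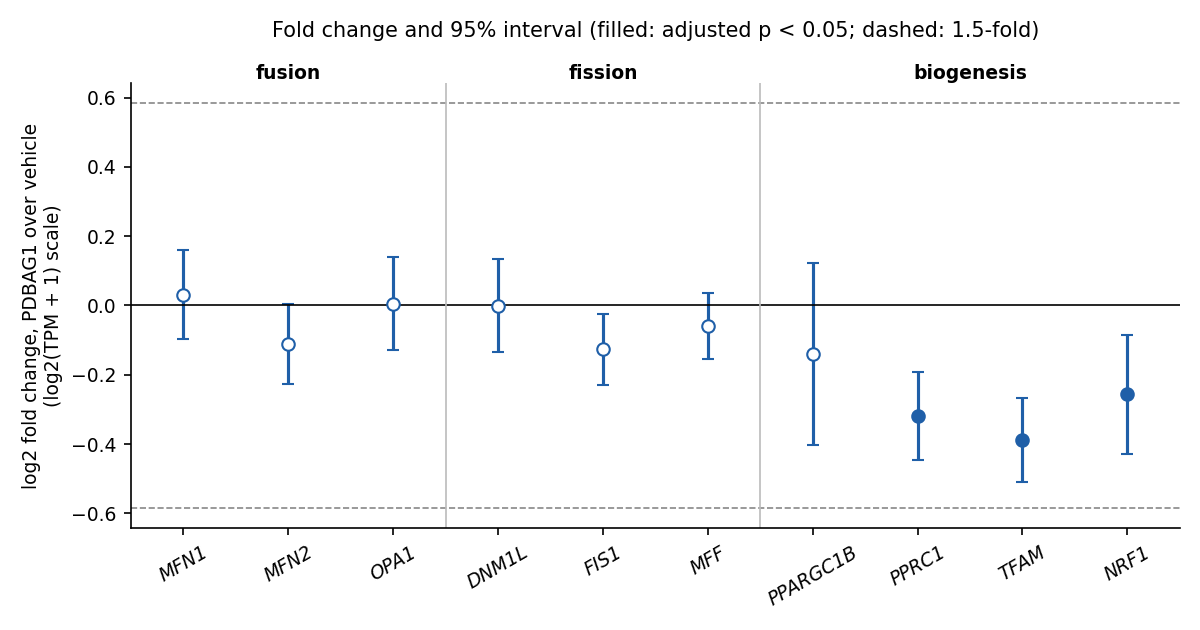
Log2 fold change of PDBAG1 over vehicle for the 10 members on the log2(TPM + 1) scale, with 95% intervals from limma, filled where the adjusted p was under 0.05. PPRC1, TFAM and NRF1 are the filled points, and no interval reaches the dashed line at 1.5-fold.

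The fusion genes passed the test in 0 of 3 cases in limma, also at an unadjusted p under 0.05, which 46.2% of all genes tested had. MFN1 (chromosome 3, 179347709 to 179394936) was at 38.4, 35.5 and 34.7 TPM in the vehicle group and 35.1, 38.7 and 37.2 TPM with PDBAG1. The groups were interleaved, and the log2 fold change of 0.03 (95% interval -0.10 to 0.16) took either sign across the settings, turning to -0.01 under median-of-ratios scaling. OPA1 (chromosome 3, 193593144 to 193697811) was at 60.0, 55.4 and 55.8 TPM in the vehicle group and 53.0, 56.3 and 62.9 TPM with PDBAG1. The PDBAG1 libraries thus held both the lowest and the highest OPA1 value of all 6, and the log2 fold change was 0.01 (95% interval -0.13 to 0.14), turning to -0.04 under median-of-ratios scaling and with the length trend removed.

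MFN2 (chromosome 1, 11980181 to 12015211) came closest of the fusion genes to a fall. It was at 57.9, 54.7 and 54.6 TPM in the vehicle group and 49.4, 50.8 and 54.6 TPM with PDBAG1, where PDBAG1 replicate 3 met the lowest vehicle library. The mean went from 55.8 ± 1.88 to 51.6 ± 2.70 TPM (SD, n = 3 each), which gave a log2 fold change of -0.11 with SE 0.05 (adjusted p by limma = 0.123) and a 95% interval of -0.23 to 0.005. It passed the test without PDBAG1 replicate 3 (log2 fold change -0.15, adjusted p = 0.0475), under median-of-ratios scaling (-0.15, adjusted p = 0.0102) and under quantile normalisation (-0.12, adjusted p = 0.0340), and the adjusted p over all 15 settings ran from 0.0102 to 0.295.

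Of the fission genes 0 of 3 passed in limma, and 1 of them, FIS1, had an unadjusted p under 0.05. DNM1L (chromosome 12, 32679200 to 32745650) was at 52.7, 49.0 and 49.4 TPM in the vehicle group and 45.9, 51.0 and 54.4 TPM with PDBAG1. As with OPA1, PDBAG1 replicate 1 held the lowest and PDBAG1 replicate 3 the highest value of all 6 libraries, and the means were 50.4 ± 2.04 and 50.4 ± 4.29 TPM (SD, n = 3 each). The 95% interval of its log2 fold change was -0.14 to 0.13. MFF (chromosome 2, 227325151 to 227357833) was at 79.9, 79.8 and 77.8 TPM in the vehicle group and 78.1, 75.0 and 74.6 TPM with PDBAG1. The groups overlapped through PDBAG1 replicate 1, and the log2 fold change was -0.06 (limma adjusted p = 0.311, 95% interval -0.16 to 0.04).

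FIS1 (chromosome 7, 101239458 to 101252316), the most abundant member, was at 139, 144 and 135 TPM in the vehicle group and 136, 123 and 125 TPM with PDBAG1. PDBAG1 replicate 1 lay inside the vehicle range and the other PDBAG1 libraries below it. The log2 fold change was -0.13 with SE 0.05 (adjusted p by limma = 0.0514, 95% interval -0.23 to -0.02). It became -0.17 and passed the test without PDBAG1 replicate 1 (adjusted p = 0.00933) and under median-of-ratios scaling (adjusted p = 0.0433), and it passed at the same value with a TPM of at least 1 required in every library (adjusted p = 0.0454). FIS1 has a short transcript of 870 bases, and with the trend of the fold changes against transcript length removed its log2 fold change was -0.02 (adjusted p = 0.723). Over all 15 settings the adjusted p ran from 0.00933 to 0.755.

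The order of OPA1 and DNM1L within the PDBAG1 group ran beside a difference in transcript length between those libraries. Over 12433 genes, the slope of a library's deviation from its group mean was -0.03 log2 units per doubling of canonical transcript length in PDBAG1 replicate 1, 0.03 in PDBAG1 replicate 3 and 0.03 in vehicle replicate 1, which had the highest OPA1, DNM1L, MFN1 and MFN2 values of its group. With the length trend removed in each library, a setting chosen after the data were seen, OPA1 and DNM1L had log2 fold changes of -0.04 and -0.02 (adjusted p = 0.568 and 0.807), within ranges over all settings of 0.445 to 0.971 and 0.411 to 1.00.

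The 3 classes can be set side by side. The median log2 fold change was 0.01 for fusion, -0.06 for fission and -0.29 for biogenesis, and 0.03 for all 12582 genes tested. Among other genes of these processes, set out below, it was -0.22 for 7 fusion cofactors and -0.08 for 13 fission cofactors. For 15 tested biogenesis regulators it was 0.09, and for 13 genes that act on mitochondrial DNA -0.004. These lists mix genes of differing and partly opposing function, such as LONP1, known to degrade TFAM, so their medians do not measure a process. The contrast between the classes describes the members only. Averaged over its members and expressed relative to the vehicle mean, the biogenesis class was at -0.32, -0.35 and -0.16 log2 units in PDBAG1 replicates 1 to 3, against 0.05, -0.08 and 0.03 in the vehicle libraries. The fission class was at -0.06, -0.08 and -0.04 in the PDBAG1 libraries and between -0.03 and 0.03 in the vehicle libraries. The fusion class was at -0.11, -0.02 and 0.05 with PDBAG1 and between -0.04 and 0.07 with vehicle, and overlapped between the groups. The fission class was separate only by a narrow gap (-0.0438 in PDBAG1 replicate 3 against -0.0321 in vehicle replicate 3). Each of its members overlapped between the groups, whereas 47.4% of all genes tested did not. The fission median log2 fold change was -0.0210 with the length trend removed from the fold changes. These class values carry no test, since a few genes are not replicates of a class.

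By mean TPM the members ran, with vehicle, in the order FIS1, TFAM, MFF, OPA1, MFN2, DNM1L, MFN1, PPRC1, NRF1 and PPARGC1B, and among neighbours only OPA1 and MFN2 overlapped over their libraries. With PDBAG1 the means kept this order, but TFAM (72.8 to 83.9 TPM) now overlapped with MFF (74.6 to 78.1 TPM), and OPA1, MFN2 and DNM1L overlapped in turn.

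Ratios of a pair of members within a library do not depend on scaling between libraries, apart from the pseudocount. They can depend on a trend with transcript length, which was not removed from them. The 6 ratios were compared by a two-sided exact permutation test, which cannot go below p = 0.1 with 3 libraries against 3. Ratios per library are given in TPM and differences as log2 of (TPM + 1). MFN1 over MFN2 was 0.663, 0.648 and 0.636 with vehicle and 0.711, 0.762 and 0.682 with PDBAG1. All 3 PDBAG1 libraries were thus higher, with a log2 difference of 0.14 (exact permutation p = 0.1, 0.2 adjusted over the 6 ratios). MFN1 accounted for 39.4 ± 0.501% of the mitofusin TPM in the vehicle group and 41.8 ± 1.36% with PDBAG1 (SD, n = 3 each).

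MFN2 over DNM1L, a fusion gene over the fission GTPase, was 1.10, 1.12 and 1.11 with vehicle and 1.08, 0.996 and 1.00 with PDBAG1, lower in all 3 (log2 difference -0.11, exact permutation p = 0.1, adjusted 0.2). OPA1 over DNM1L, the pair of dynamin-like GTPases, was 1.14, 1.13 and 1.13 with vehicle and 1.15, 1.10 and 1.16 with PDBAG1. This ratio overlapped between the groups, with a log2 difference of 0.01 (exact permutation p = 1). TFAM over NRF1 was 8.39, 8.81 and 8.74 with vehicle and 8.32, 7.62 and 8.07 with PDBAG1. It was lower in all 3 PDBAG1 libraries (log2 difference -0.13, exact permutation p = 0.1, adjusted 0.2). The gap between the groups was narrow for TFAM over NRF1 (8.32 against 8.39) and for MFN2 over DNM1L (1.08 against 1.10). As single genes, 47.4% of all tested did not overlap between the groups.

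The ratios of MFF to FIS1 and of PPARGC1B to PPRC1 overlapped between the groups, with log2 differences of 0.07 and 0.18 (exact permutation p = 0.2 and adjusted 0.24 for each). With the length trend removed from the fold changes, MFF and FIS1 had log2 fold changes of -0.021 and -0.025. At the adjusted level 0 of the 6 ratios could be called, since the smallest possible p is 0.1.

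**Figure D3:**
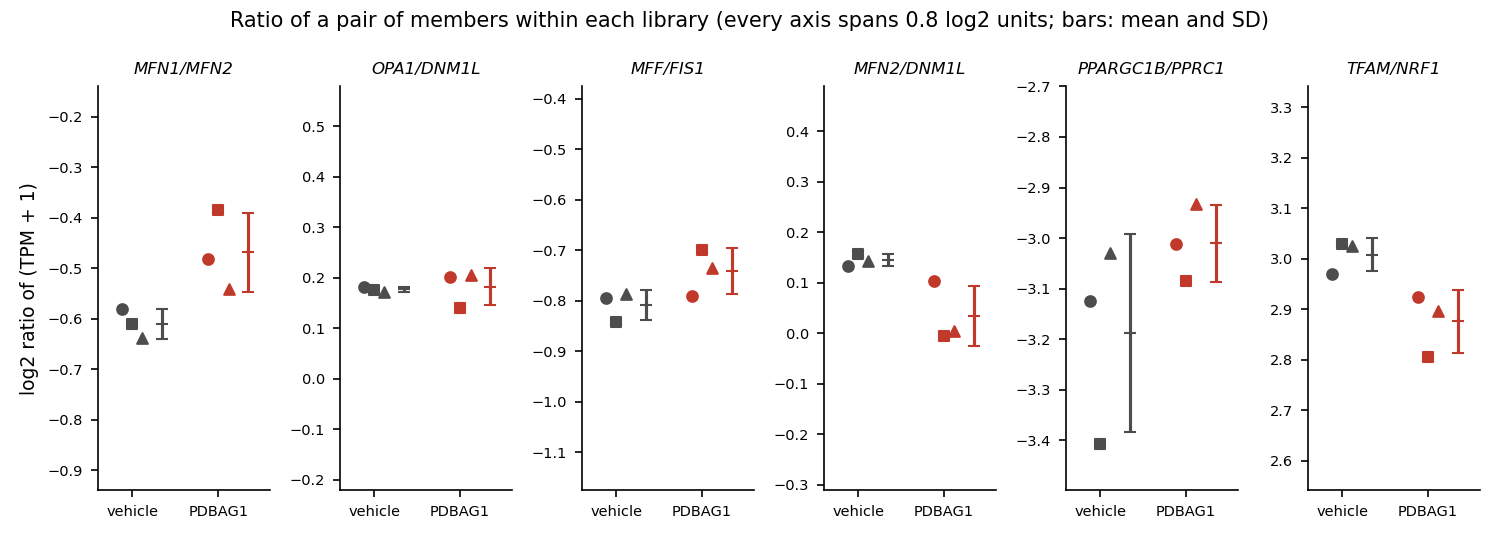
Log2 ratio of (TPM + 1) for 6 pairs of members in each library, with vehicle in grey, PDBAG1 in red, replicates 1 to 3 as circle, square and triangle, and the group mean with SD beside the points. The groups are separate for MFN1/MFN2, MFN2/DNM1L and TFAM/NRF1 and overlap for the other ratios.

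The members were set against 56 other genes of the same processes, of which 53 were tested, 8 called higher and 8 called lower in limma. The 16 called genes are 30.2% of those tested, beside 37.6% of all genes tested, of which 21.7% were higher and 15.9% lower. Both the order of these shares and the even split depended on the scaling, with 23 genes called (8 higher, 15 lower), or 43.4% against 41.3% of all genes, under median-of-ratios scaling and 24 (8 higher, 16 lower), or 45.3% against 40.9%, under quantile normalisation. Over all genes tested, 21.8% were called lower under each of these scalings. As deposited, the median log2 fold change of the 53 was -0.03. No gene of these lists reached 1.5-fold. ESRRB, ESRRG and PERM1 were too low to be tested.

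Of 7 genes listed as cofactors of fusion, which include proteases that cleave OPA1, 3 fell and 0 rose. The shares of all genes just given apply to each list. PHB2, the inner-membrane prohibitin that stabilises long OPA1, was lower with PDBAG1, at 366 ± 8.34 TPM against 434 ± 10.1 TPM with vehicle (SD, n = 3 each), which gave a log2 fold change of -0.24 (adjusted p by limma = 0.000158). STOML2, a stomatin-like protein of the inner membrane, went from 281 ± 6.06 to 242 ± 6.36 TPM (log2 fold change -0.22). PLD6, the mitochondrial phospholipase that acts with the mitofusins, fell by 0.23 on the log2 scale, a call lost under 6 settings. OMA1 and YME1L1, the proteases that cleave OPA1, had log2 fold changes of 0.08 and -0.04 and did not pass.

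Of 13 cofactors of fission, 3 rose and 1 fell. SPIRE1, an actin nucleator, rose from 39.9 ± 2.39 to 48.2 ± 2.84 TPM (SD, n = 3 each), changing by 0.27 on the log2 scale (adjusted p by limma = 0.00357). DNM2, a dynamin also known for endocytosis, rose from 105 ± 2.95 to 123 ± 1.27 TPM (log2 fold change 0.23), and INF2, a formin, by a log2 fold change of 0.17, a call lost under 3 settings. PGAM5, a mitochondrial phosphatase that acts on DRP1, was lower with PDBAG1, at 51.1 ± 3.05 TPM against 65.9 ± 1.62 TPM with vehicle (SD, n = 3 each), changing by -0.36 on the log2 scale (adjusted p by limma = 0.000150), close to the fall of TFAM. The DRP1 receptors MIEF1 and MIEF2 had log2 fold changes of -0.08 each and did not pass.

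**Figure D4:**
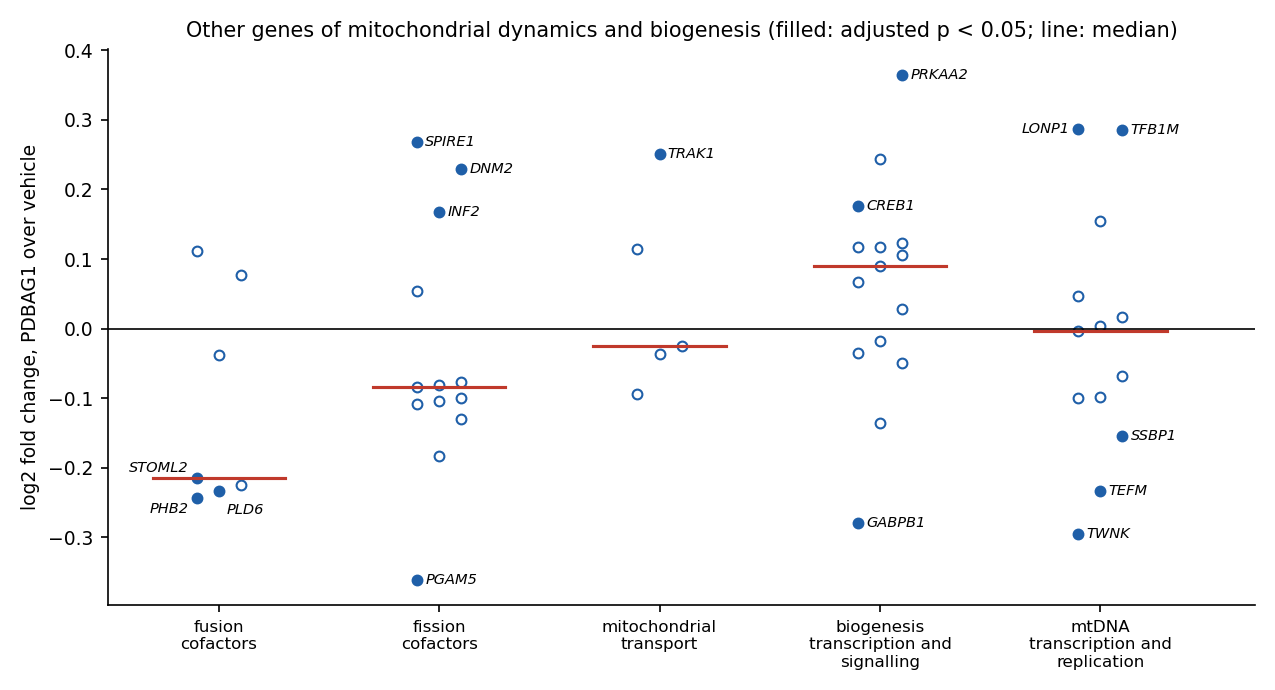
Log2 fold change of PDBAG1 over vehicle for 53 other genes of mitochondrial dynamics and biogenesis in 5 lists, filled and named where the adjusted p was under 0.05, with a red line at the median of each list. Called genes lie on both sides of 0 in each list except fusion cofactors, where the 3 called genes are lower, and mitochondrial transport, where TRAK1 alone was called.

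Of the 5 genes for transport along microtubules, TRAK1, an adaptor between the mitochondrial GTPases RHOT1 and RHOT2 and the motor, was called, with a log2 fold change of 0.25. Of 15 tested regulators of biogenesis, 2 rose and 1 fell. PRKAA2, a catalytic subunit of the energy sensor AMPK, rose from 7.28 ± 0.618 to 9.66 ± 0.742 TPM (SD, n = 3 each), changing by 0.37 on the log2 scale (adjusted p by limma = 0.00506), whereas the other catalytic subunit, PRKAA1, was more abundant and did not pass (log2 fold change -0.02). CREB1, the cAMP-responsive factor, rose by a log2 fold change of 0.18, a call lost under 7 settings. GABPB1, the partner subunit of GABPA, was lower with PDBAG1, at 22.2 ± 1.24 TPM against 27.2 ± 1.18 TPM with vehicle (log2 fold change -0.28, limma adjusted p = 0.00372), and GABPA itself had a log2 fold change of 0.12 and did not pass. ESRRA, the orphan receptor that works with PGC-1, had a log2 fold change of 0.07.

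Of 13 genes that transcribe, copy or bind mitochondrial DNA, 2 rose and 3 fell. TWNK, the mitochondrial DNA helicase, was lower with PDBAG1, at 15.3 ± 1.35 TPM against 19.0 ± 0.425 TPM with vehicle (SD, n = 3 each), changing by -0.29 on the log2 scale (adjusted p by limma = 0.00597). SSBP1, the single-strand binding protein, and TEFM, the elongation factor, fell by 0.15 and 0.23 on the log2 scale, and both calls, like those of INF2 and CREB1, were lost with the length trend removed. LONP1, the matrix protease known to degrade TFAM, rose from 86.1 ± 1.30 to 105 ± 0.991 TPM (log2 fold change 0.29, limma adjusted p = 0.000131), and the rRNA methyltransferase gene TFB1M had a log2 fold change of 0.29. POLRMT, the mitochondrial RNA polymerase, and POLG, the catalytic subunit of the DNA polymerase, had log2 fold changes of 0.05 and 0.02 and did not pass. The genes encoded by mitochondrial DNA were not analysed here. Over the 15 other settings all 16 calls kept their direction, and 10 of them passed the test throughout. Of the others, PLD6, CREB1 and TEFM were each lost in 4 of the 6 fits without 1 library, and INF2 and TFB1M without vehicle replicate 3.

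**Figure D5:**
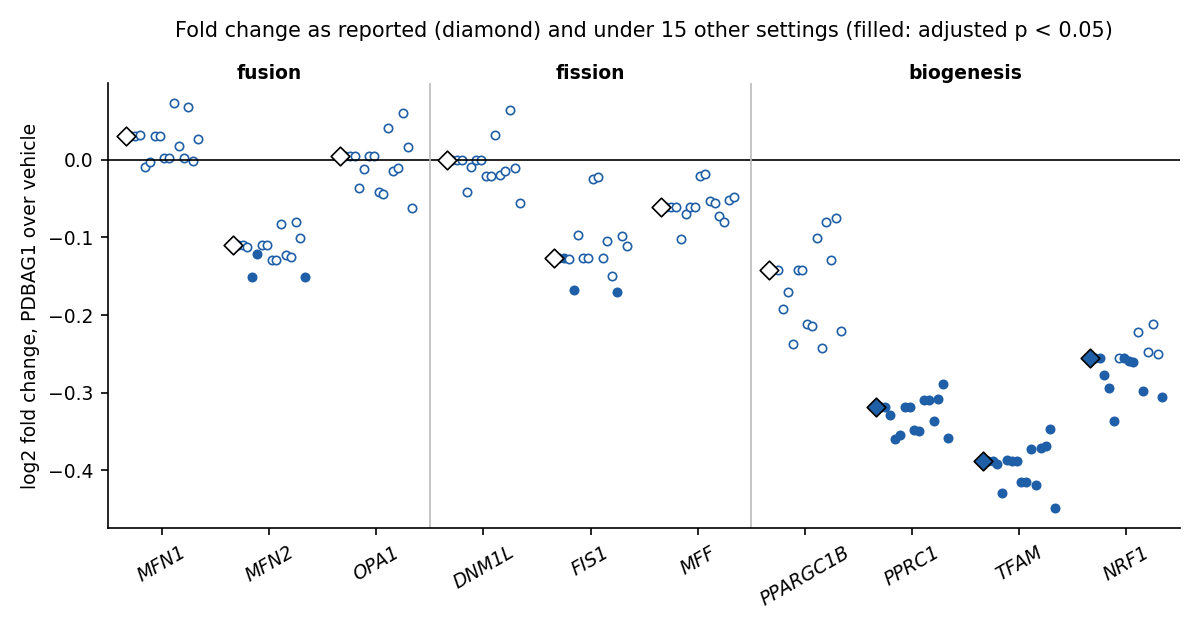
Log2 fold change of PDBAG1 over vehicle for the 10 members as reported (diamond) and under 15 other settings (circles), filled where the adjusted p was under 0.05. TFAM and PPRC1 are filled throughout, NRF1 in part, and MFN1, OPA1 and DNM1L lie on both sides of 0.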

How the data were processed

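Total RNA of MDA-MB-231 cells was sequenced by the authors as mRNA libraries on the BGISEQ500 platform. The submitters' processing notes name HISAT2 2.0.4, Bowtie2 2.2.5 and RSEM 1.2.12 with GRCh38.p12, whereas the paper's methods name HISAT2, GRCh38.p13 and FPKM. The unit the authors deposited is TPM per gene, rounded to 2 decimals and summing to between 999998 and 1000000 in each library. Scaling between libraries, the annotation release and the use of strand are not given in the sources used here, so overlapping or antisense transcripts cannot be told apart.

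Samples were grouped by their titles. Genes that reached 1 TPM in no fewer than 3 of the 6 libraries were tested on log2(TPM + 1), a scale that understates changes of low genes, with limma 3.58.1 (lmFit, eBayes with a trend of variance) in R 4.3.3, Benjamini-Hochberg adjustment and a threshold of 0.05. The limma steps were also run on simulated data with few changed genes and independent spread. That run does not cover trends of scaling or transcript length. Ratios were tested with scipy 1.17.1. Positions and canonical transcript lengths are from GENCODE v44 on GRCh38, matched by Ensembl identifier. Promoters are RefSeq windows from 250 bases before to 50 after a start site. The members and lists were chosen with earlier results of these data known. Members are all named, and from the other lists the called genes with the largest changes, up to 4 per direction, and PPARGC1A; others are named after their values were seen.

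Alternatives were no filter, 1 TPM required in all 6 libraries, a pseudocount of 0.1, median-of-ratios scaling, quantile normalisation, the replicate number as a block, no trend of variance, removal of the trend with transcript length, leaving out each library, and a limit of 1.5-fold.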

Additional observations from a re-analysis of the deposited data

How the results depend on the processing

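At a limit of 1.5-fold, 0 members and 0 genes of the other lists were called (0 higher and 0 lower), and 420 of all genes (360 higher, 60 lower) in place of 4736. Under median-of-ratios scaling 5 members were called, all lower, with MFN2 and FIS1 added. Genes of the other lists called lower numbered 15 (28.3% of those tested) under that scaling and 16 (30.2%) under quantile normalisation, against 8 (15.1%). Over all genes tested, 15.9% were called lower as deposited and 21.8% under each of these scalings. Leaving out 1 library gave 2 to 4 members (0 higher), 11 to 18 genes of the other lists (5 to 9 higher, 6 to 11 lower) and 3520 to 4682 of all genes (2013 to 2882 higher, 1501 to 2073 lower). The fission median was -0.10 under median-of-ratios scaling and -0.0210 and -0.0211 with the length trend removed from the fold changes or in each library. Without 1 library the class medians ran from -0.0615 to 0.0603 for fusion, from -0.08 to -0.05 for fission and from -0.33 to -0.26 for biogenesis. The log2 differences of the ratios ran from 0.10 to 0.18 for MFN1/MFN2, from -0.0058 to 0.0270 for OPA1/DNM1L, from 0.05 to 0.09 for MFF/FIS1, from -0.14 to -0.09 for MFN2/DNM1L, from 0.07 to 0.26 for PPARGC1B/PPRC1 and from -0.16 to -0.10 for TFAM/NRF1.

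Reversals concerned 3 members near 0, none of them called in any setting. MFN1 turned to -0.0096 under median-of-ratios scaling, -0.0032 under quantile normalisation and -0.00092 without PDBAG1 replicate 2. OPA1 turned to -0.0361 under median-of-ratios scaling, -0.0119 under quantile normalisation, and -0.0412 and -0.0438 with the length trend removed from the fold changes or in each library. Without 1 library, MFN1 ran from -0.00092 to 0.0734, OPA1 from -0.0615 to 0.0603 (negative without vehicle replicate 2 or 3 or PDBAG1 replicate 3) and DNM1L from -0.0557 to 0.0648 (positive without vehicle replicate 1 or PDBAG1 replicate 1). The cause was not tested.

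Under the replicate block, 2 members were called, NRF1 being lost, and 3951 of all genes, 3904 of them among the 4736. The labels tie the numbers to no shared origin, and deviations of libraries with the same number were not aligned (correlations -0.21, 0.01 and -0.08), nor did every library correlate best with its own number. Removal of the length trend in each library was chosen after the data were seen. Because the values are TPM, depth and counting error are unknown.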
